A study of Oryza sativa with 3 samples.

Results

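Plants read light through families of photoreceptor proteins, and in rice these include the phytochromes, the cryptochromes and the phototropins. Of 9 photoreceptor genes looked for by symbol or synonym, 5 had values on the arrays: the phytochromes PHYA (LOC4333930), PHYB (LOC4332623) and PHYC (LOC4334135), and the phototropins PHOT1A (LOC4351240) and PHOT2 (LOC4335426). They were represented by 6 of the 57258 probe sets that are not controls, and they are 5 of the 17905 genes to which the platform annotation gives a probe set of their own. PHOT1B (LOC4349531) had no probe set that the annotation pairs with it alone, and CRY1A, CRY1B and CRY2 were not matched. The account therefore covers phytochromes and phototropins, and the cryptochromes were not analysed here.

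RNA came from 3 samples of rice shoot tips, all of the cultivar Hitomebore, which the labels number as biological replicates 1 to 3 of a single group named CK. The labels neither spell out CK nor say how many plants made up a sample. All 3 samples had the same light history, in which 2 days of darkness at 28 °C were followed by about 48 h of greenhouse days of 16 h light and 8 h night at 26 °C. The growth protocol speaks of 2 genotypes without naming either, and the labels of these samples name no treatment, mutation or transgene and no hour of harvest. The values are log2 values made by robust multi-array averaging (RMA), in which 1 unit is a doubling of signal. With a single group there is no contrast between conditions, so the data answer whether the photoreceptor genes gave signal in the young shoot and how closely the samples agreed on it.

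Phytochromes are soluble receptors that carry a bilin chromophore and switch between a red-absorbing and a far-red-absorbing form. In rice they act together in seedling de-etiolation, leaf and internode growth and the timing of flowering, and phytochrome A is known in plants for high levels in darkness and rapid loss of its protein and transcript in light. Phototropins are plasma-membrane kinases with blue-light-sensing LOV domains, known for bending toward light, chloroplast movement and the opening of stomata. Cryptochromes are flavin-carrying blue-light receptors related to DNA photolyases.

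All 5 photoreceptor genes with values were well above background in every shoot-tip sample. Background was judged by the brightest of 17 Tag control probe sets on each array, which match no rice gene and read 4.98, 4.88 and 4.97 on replicates 1, 2 and 3. The photoreceptor probe sets, 6 of 6, lay above this ceiling on all 3 arrays, as did 46.8% of all probe sets, and the genes, 5 of 5, compare with 81.3% of all genes. The lowest margin was that of PHOT2 on replicate 3, 4.10 log2 above the ceiling. Since most genes lie above the ceiling, the count by itself does not set the photoreceptors apart.

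**Figure D1:**
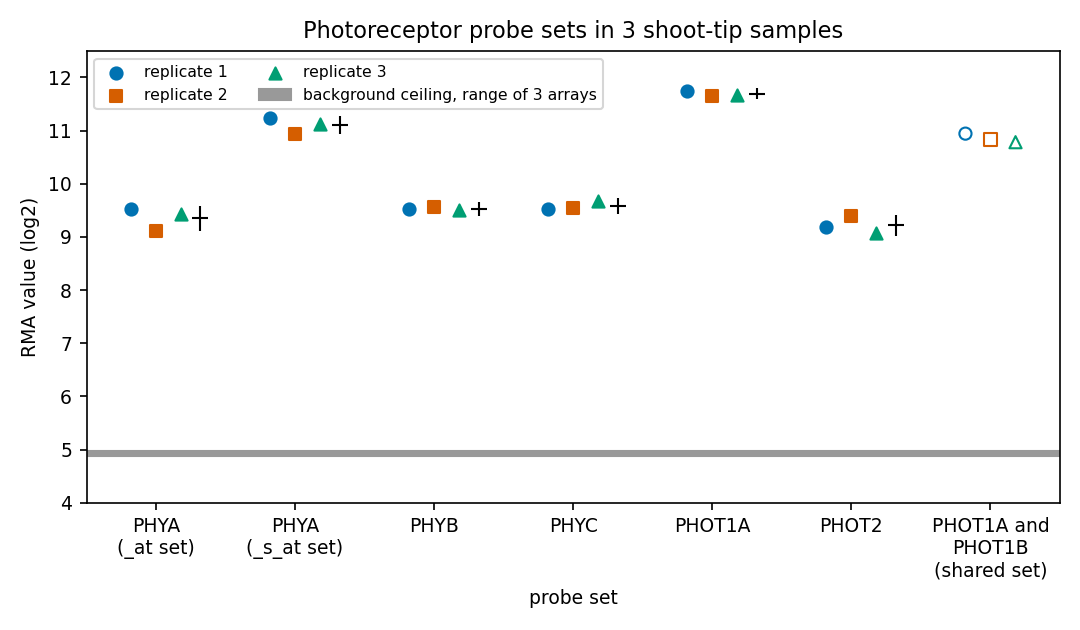
Log2 RMA values (vertical axis) of each photoreceptor probe set (horizontal axis) on replicates 1 to 3, with black bars for the mean and its 95% interval from limma's fit. All points lie far above the grey band, the background ceiling of 4.88 to 4.98, and open symbols mark the probe set that the annotation pairs with both PHOT1A and PHOT1B.

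PHYA, the phytochrome known for its light-labile pool, was measured by 2 probe sets. The first, of the _at type, read 9.52 on replicate 1, 9.10 on replicate 2 and 9.43 on replicate 3, with a mean of 9.35 ± 0.22 (SD, n = 3) and a 95% interval of 9.12 to 9.58. Its second probe set, of the _s_at type, read 11.24, 10.93 and 11.12 on the same arrays, with a mean of 11.10 ± 0.16 (SD, n = 3). Both probe sets of PHYA were lowest on replicate 2 and highest on replicate 1, so the order of the samples was the same by both.

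Replicate 2 lay below the mean of the other 2 arrays by 1.30-fold for the first probe set of PHYA and by 1.19-fold for the second. In log2 these shifts were -0.38 and -0.25. Of all probe sets above the ceiling, 3.63% had a shift on replicate 2 as low as the first or lower, and 9.99% one as low as the second or lower. These shares are for the array and direction in which PHYA stood out, so they make it look rarer than it was. By SD, which picks no array, 21.0% of probe sets above the ceiling had a larger value than the first. For the second, 60.3% had an SD as small or smaller. Such agreement between probe sets is common: of 1553 genes with 2 probe sets above the ceiling, both were lowest on the same array in 50.4%, and both were lowest on replicate 2 in 21.2%. In a bulk sample, fewer cells of a type and less RNA per cell cannot be told apart, and this holds for each difference between samples given here.

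The 2 probe sets of PHYA differ in brightness, but the affinity of the probes enters every array value, so levels of different probe sets are not ranked. In Affymetrix naming an _s_at probe set holds probes that can match several transcripts, and the annotation used here pairs that of PHYA with this gene alone. An _a_at probe set holds probes that match several transcripts of 1 gene. PHYB, PHYC, PHOT1A and PHOT2 were each measured by a single _a_at probe set.

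PHYB, the main red-light phytochrome of light-grown plants, differed little between samples. It read 9.52, 9.56 and 9.51 on replicates 1, 2 and 3, a mean of 9.53 ± 0.03 (SD, n = 3) with a 95% interval of 9.40 to 9.66. The highest and lowest samples differed by 1.04-fold. Of the probe sets above the ceiling, 4.37% had an SD as small or smaller. After a second quantile normalization its SD was 0.06, with 0.03 for PHOT1A, so the order of these small SDs depends on the scaling.

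PHYC, which in rice acts with the other phytochromes in seedling growth and flowering time, read 9.52, 9.55 and 9.67 on replicates 1, 2 and 3. Its mean was 9.58 ± 0.08 (SD, n = 3), with a 95% interval of 9.44 to 9.73. Replicate 3 was the highest sample for PHYC, 1.10-fold above the mean of the other 2 arrays, and probe sets above the ceiling were themselves often highest there, in 47.1% of cases. The order of the samples was another one in these 2 phytochromes than in PHYA. On replicate 2, where PHYA was lowest, PHYB was highest, with a shift of 0.05, and PHYC lay in the middle, with a shift of -0.05. Whether PHYA differs from PHYB and PHYC in this was not tested. All 3 phytochrome genes lie on chromosome 3 in the RefSeq assembly ASM3414082v1.

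**Figure D2:**
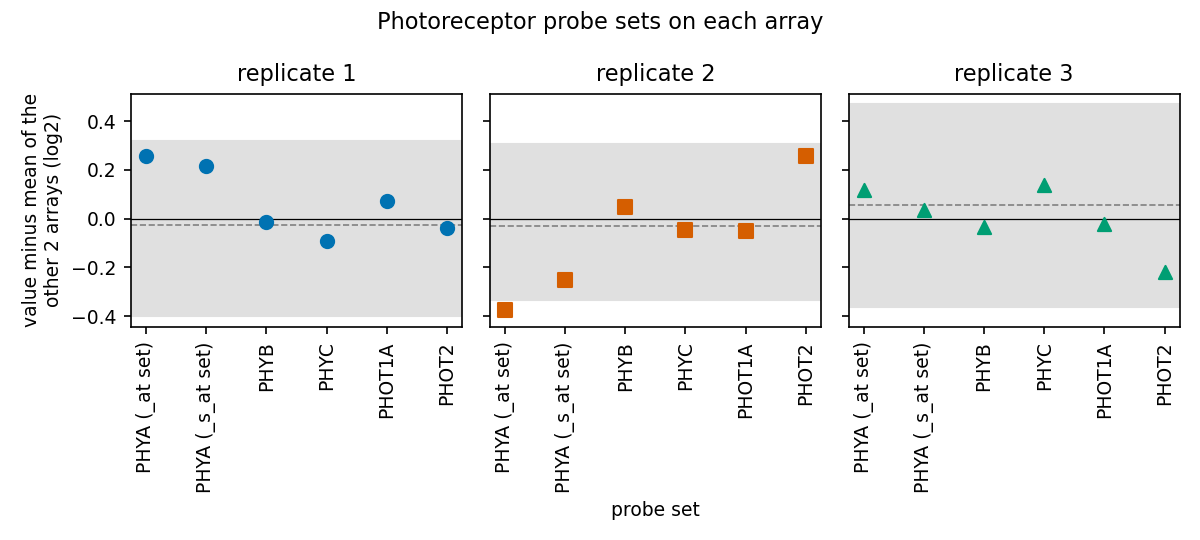
Each point is the value of a photoreceptor probe set on one array minus the mean of the other 2 arrays (log2). Grey bands hold the central 90% of probe sets above the ceiling and dashed lines their median. The first PHYA probe set lies below the band on replicate 2 (-0.38), and all other points lie within the bands.

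PHOT1A, a phototropin also known as Osnph1a, read 11.74, 11.66 and 11.67 on replicates 1, 2 and 3. Its mean was 11.69 ± 0.04 (SD, n = 3), with a 95% interval of 11.59 to 11.79, and the samples differed by at most 1.06-fold. PHOT1A has a close paralog in PHOT1B. In assembly ASM3414082v1, PHOT1A is the 10th protein-coding gene from the start of chromosome 12 and PHOT1B the 11th from the start of chromosome 11. The starts of chromosomes 11 and 12 are known in rice as a duplicated segment.

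A further probe set, of the _x_at type, in which some probes also match other transcripts, is paired by the annotation with both PHOT1A and PHOT1B. It read 10.94, 10.83 and 10.78 on replicates 1, 2 and 3, a mean of 10.85 ± 0.08 (SD, n = 3), above the ceiling on each array. Its signal cannot be assigned to either copy, and how much of the PHOT1A probe set's own signal may come from PHOT1B RNA was not tested. Both probe sets were highest on replicate 1, as were 27.9% of probe sets above the ceiling. The PHOT1A probe set was lowest on replicate 2 and the shared one on replicate 3.

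PHOT2, a phototropin also known as Osnph1b, read 9.19, 9.39 and 9.07 on replicates 1, 2 and 3. Its mean was 9.22 ± 0.16 (SD, n = 3), with a 95% interval of 9.02 to 9.41. Replicate 2 was the highest sample for PHOT2, 1.20-fold above the mean of the other 2 arrays, where PHYA was lowest. Of the probe sets above the ceiling, 92.7% had a shift on replicate 2 at or below that of PHOT2, and 61.7% had an SD as small or smaller. PHYA and PHOT2 thus lay on opposite sides on this array, and PHOT1A had a shift of -0.05.

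None of these differences between samples passed the test of spread. In limma's F test of each variance over the variance usual at that level, with Benjamini-Hochberg adjustment over 57258 probe sets, the adjusted p was 0.94 for both PHYA probe sets and for PHOT2, 0.96 for PHYC, 0.98 for PHOT1A and 1.0 for PHYB. Unadjusted p-values from the same limma fit were 0.14 and 0.17 for PHYA and 0.28 for PHOT2. The test called 0 of 6 photoreceptor probe sets, and 0 of 57258 in all, or 0%. At an unadjusted p under 0.05 it had 0 of the 6 and 2.43% of all. With 3 arrays a p that misses the threshold does not show that a gene was equal in the samples.

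The size of the differences can be given without a test. The highest and lowest arrays differed by over 1.5-fold for 0 of 6 photoreceptor probe sets, against 6.58% of all probe sets and 8.69% of those above the ceiling, and the largest difference was 1.34-fold, for PHYA. The median difference over the 6 probe sets was 1.17-fold, the same as over all probe sets (1.17-fold). Their median SD was 0.12, against 0.13 for probe sets above the ceiling. The group's median thus lay near that of the array at large. The members spread around it, with PHYA and PHOT2 above the SD usual at their level (1.90, 1.71 and 1.35 times it) and PHYC, PHOT1A and PHYB below it (0.71, 0.51 and 0.25 times). Replicate 2 lay farthest from the mean for PHYA and PHOT2, so leaving it out had to lower their SDs. Without it the SDs were 0.06 and 0.08 for the PHYA probe sets and 0.08 for PHOT2, and PHYC had the highest, 0.11.

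**Figure D3:**
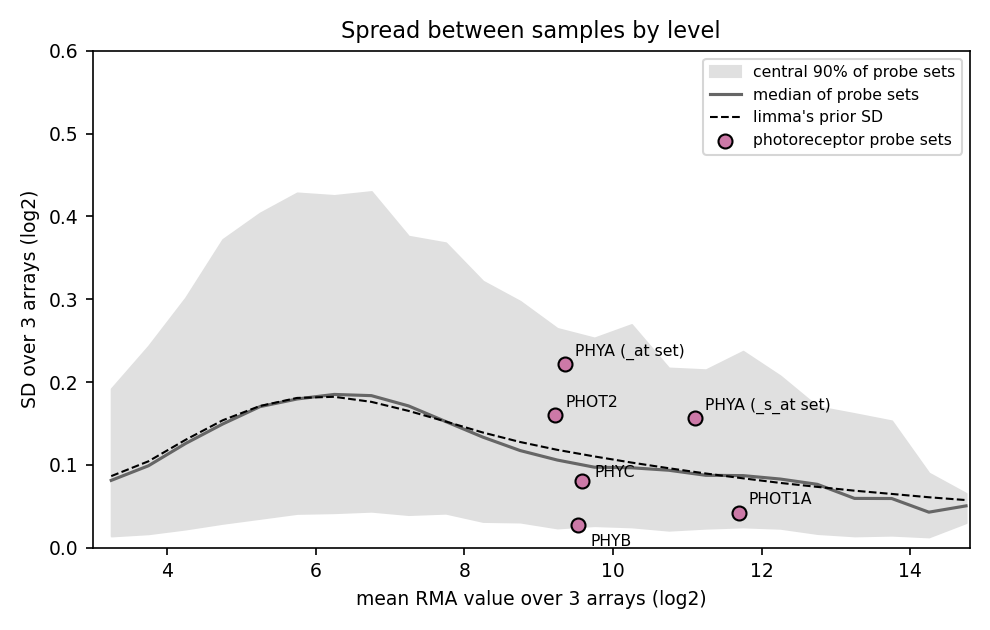
SD over the 3 arrays against mean value (both log2), with the median and the central 90% of all probe sets in bins of 0.5 log2 and the SD that limma takes as usual at each level. The 6 photoreceptor points lie inside the grey band. PHYA and PHOT2 lie above the dashed line, and PHYC, PHOT1A and PHYB below it.

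The photoreceptors as a group had median shifts near 0 on every array. The median shift over the 6 probe sets was 0.03 on replicate 1, -0.05 on replicate 2 and 0.01 on replicate 3, against -0.03, -0.03 and 0.06 over all probe sets above the ceiling. Over the 4 phytochrome probe sets, of which PHYA gives 2, it was 0.10, -0.15 and 0.08. Over the 2 phototropin probe sets it was 0.02, 0.10 and -0.12. Of the 6 photoreceptor probe sets, 1 was lowest on replicate 1, 3 on replicate 2 and 2 on replicate 3, against 37.5%, 35.2% and 27.4% of probe sets above the ceiling.

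A list of light signalling genes and relatives of the photoreceptors was also looked up. Of 52 symbols of light signalling genes, most had no match in the annotation, among them those of the phytochrome-interacting factors other than APG, of COP1 and of the B-box factors. There were 8 genes matched and 6 with a probe set. Of these 6 genes, 5 lay above the ceiling in every sample (81.3% of all genes) and 0 differed by over 1.5-fold between arrays (6.33% of all genes).

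HO1 (LOC4341462), the heme oxygenase also known as SE5 that starts the synthesis of the phytochrome chromophore, read 10.70, 10.80 and 10.56 on replicates 1, 2 and 3. Its highest sample was replicate 2. HO2 (LOC4333033), named as a second heme oxygenase, read 9.79, 9.91 and 10.02. Neither HO1 nor HO2 had the low replicate 2 of PHYA.

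CPT1 (LOC4329720), the rice NPH3 protein that acts with phototropins in the bending of coleoptiles toward light, was the gene of the list below the ceiling. It read 3.56, 3.78 and 3.79 on replicates 1, 2 and 3, below the ceiling on each array, by 1.11 to 1.43 log2. The phototropins themselves were above the ceiling in the same samples. A value below the ceiling sets no lower limit on the RNA and does not show that the gene was silent.

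Relatives of the cryptochromes were measured through 2 genes. CRYD (LOC4341749), a DASH-type cryptochrome, read 5.94, 6.45 and 6.52 on replicates 1, 2 and 3. Replicate 1 was its lowest sample, 1.46-fold below the mean of the other 2 arrays, and its highest and lowest samples differed by 1.49-fold, just short of 1.5-fold. PHR (LOC9272017), a photolyase that uses light to repair ultraviolet damage in DNA, read 8.78, 8.56 and 8.97, lowest on replicate 2. The adjusted p of limma's test of spread was 0.94 for both genes.

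A bZIP gene was matched through the synonym OsbZIP1 but bears the symbol TGA2.2 (LOC4332660), a factor of the TGA type, and is not one of the HY5-type light factors meant by the list. It read 9.09, 9.02 and 8.93 on replicates 1, 2 and 3. DBB1 (LOC4339794), whose synonym OsUV-DDB1 names the damaged-DNA-binding protein that also works with the COP and DET repressors of light responses, was added after its values were seen. Its brighter probe set read 10.59, 10.42 and 10.72, and the other 7.36, 7.45 and 7.59, lowest on different arrays.

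Marker genes of tissues were looked up, and replicate 2, on which PHYA was lowest, stood apart in some of them. These lists were chosen with earlier results of these data known, so they give no independent check of the samples. Green-tissue markers, 4 of 4 genes, lay above the ceiling in every sample (81.3% of all genes). Of their 8 probe sets, 4 of them from the gene RCA, 8 were highest on replicate 2, by 0.15 to 0.44 log2 over the mean of the other arrays. Among all probe sets above the ceiling, 24.9% were highest there. OSH1 (LOC4333973), a homeobox gene of the shoot meristem, had both probe sets below the ceiling on replicate 2 and above it on replicates 1 and 3. Endosperm markers, 4 of 4 genes, were highest on replicate 2, as were 4591 of all 17905 genes. Their summed signal on the linear scale, with 1 probe set a gene, was 1163 there against 181 and 188 on replicates 1 and 3. By that probe set only 1 of them, GLUA2, lay above the ceiling in every sample (81.3% of all genes). It read 6.75, 7.21 and 7.07 on replicates 1, 2 and 3.

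Markers were also looked up for other parts of the seedling. Aleurone and scutellum markers, 3 genes of alpha-amylases, lay below the ceiling on all arrays, as did 2764 of all 17905 genes. Of 3 root markers, the transporters LSI1 and NRAMP5 lay above the ceiling in every sample (81.3% of all genes) and LSI2 below it in each. Their summed signal ranged from 1483 to 1516, but the genes moved differently. LSI1 was highest on replicate 2, at 9.13 against 8.84 on replicates 1 and 3. NRAMP5 was lowest there, at 9.87 against 9.98 and 10.02. The 4 control probe sets for 18S, 25S and 28S ribosomal RNA averaged 12.05, 11.73 and 9.59 on replicates 1, 2 and 3. Between replicates 1 and 3, the photoreceptor probe sets differed by 1.01-fold (PHYB) to 1.11-fold (PHYC). The part of tissue makeup or of RNA quality in the differences of any photoreceptor between samples was not tested.

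**Figure D4:**
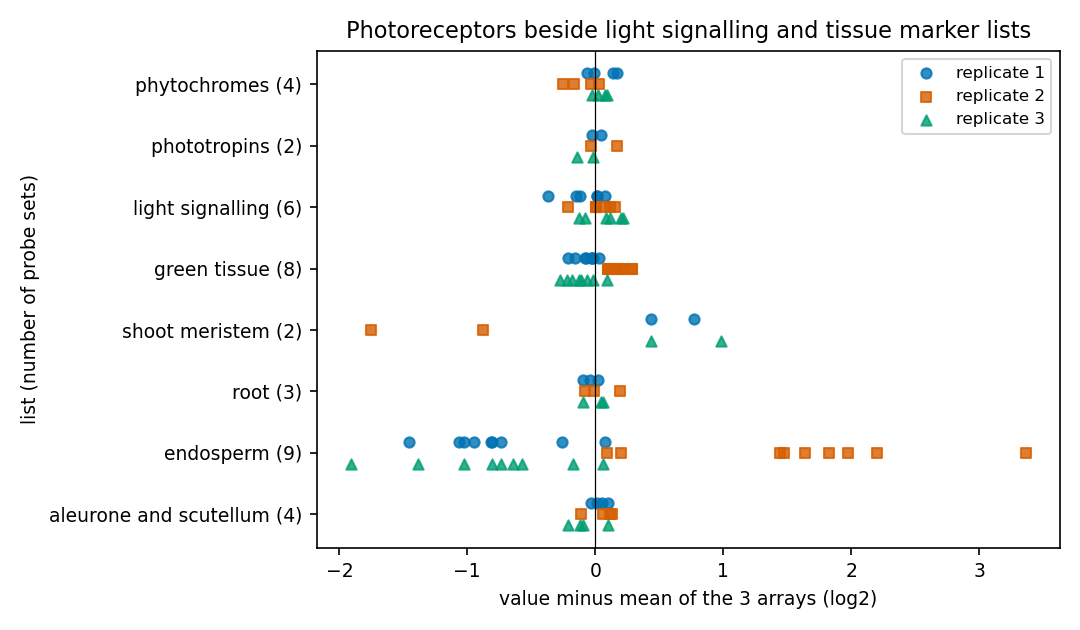
Value on each array minus the mean of the 3 arrays (log2, horizontal axis) for each probe set of the photoreceptors, the light signalling genes and the tissue markers. The photoreceptor point farthest from 0 is that of PHYA on replicate 2, at -0.25, while on replicate 2 endosperm probe sets reach 3.37 and those of the shoot meristem gene OSH1 -1.76.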

How the data were processed

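RNA of 3 shoot-tip samples, 6 ug of total RNA each per the labels' protocols, was labelled with biotin and measured on Affymetrix arrays. The authors deposited log2 values, made with Affymetrix Expression Console by RMA according to the submitters' processing notes (versions not given in the sources used here). As background, RMA removes background signal, gives all arrays nearly 1 distribution and combines each set's probes, so differences in total signal are lost and low values are compressed. Scanner files were not used, and the number of arrays limits the precision.

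The deposited table lists 57381 probe sets, 123 of them controls that were left out of the counts. The platform annotation pairs 22436 probe sets with 1 gene, 95 with several and 34850 with none listed. Only the first kind was named, with the RefSeq symbols and synonyms of ASM3414082v1, and no coordinates are printed because the build behind the array is not stated. For counts of genes, the probe set with the highest mean was used. All photoreceptor probe sets were named. Of the light signalling genes, the rule named per sublist the 2 with the highest SD above the ceiling, those above it on no array, and those over 1.5-fold between arrays. No gene was named for a pattern like a member's, as 1 group of 3 samples holds none. Members and lists were chosen with earlier results of these data known.

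Means, 95% intervals and the F test of spread came from an intercept-only fit in limma 3.58.1 (R 4.3.3) with trended, robust eBayes. The F test used the prior degrees of freedom common to probe sets that are not outliers, because the robust fit lowers them for outlying variances, and on simulated data it kept its error rate but called only a minority of raised spreads after adjustment when variances were drawn from the fitted prior. Shifts and 1.5-fold counts have no test. Each p-value compares the variance of a probe set over these samples with the variance usual at its level, and tests no difference between 2 samples. Alternatives were 2 other ceilings (the array median, and the mean plus 2 SD of the Tag controls), a second quantile normalization, leaving out _x_at and _s_at probe sets, leaving out each replicate, other eBayes settings, a filter at the array median, averaging a gene's probe sets, and values set to the ceiling.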

Additional observations from a re-analysis of the deposited data

Results flagged for a closer look

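A probe set that the annotation pairs with both PHOT1A and PHOT1B lies outside the counts of single-gene probe sets and gave signal above the Tag controls on all arrays, with a mean of 10.85 log2. PHOT1A and PHOT1B cannot be told apart by it. Groups of 3 samples were not tested for outlying samples.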

How the results depend on the processing

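All 81 alternative values of the photoreceptor and light signalling results kept their side of the limits set for them, but for part of them no other outcome was possible. The limit for mean levels was the SD over 3 arrays, and leaving out 1 array cannot move a mean that far. A count of 0 over 1.5-fold cannot rise when arrays or probe sets are left out, or when low values are set to the ceiling. Likewise, 6 of 6 above the ceiling cannot fall when an array is left out. Photoreceptor probe sets above the ceiling were 6 of 6 under each alternative, and 5 of 5 without _x_at and _s_at probe sets, and light signalling genes above it were 5 of 6 throughout, also with DBB1 and without TGA2.2, an alternative chosen after seeing the data. The count over 1.5-fold between arrays was 0 throughout for both. In limma's test of spread the lowest adjusted p of a photoreceptor probe set ranged from 0.85 to 0.97 over the alternatives, and 0 passed at an unadjusted p under 0.05, while a fit to probe sets whose mean exceeded the array median called 51 of 28611 probe sets, none of a photoreceptor. Both PHYA probe sets were lowest on replicate 2 after a second quantile normalization too, by -0.33 and -0.22. Median shifts changed sign in 3 cases, all within the spread between samples: without _x_at and _s_at probe sets they were -0.01 on replicate 1 and -0.02 on replicate 3, and without replicate 2 the shift on replicate 3 was -0.08. No paired analysis was possible because the design holds a single group. With 3 arrays and values of 1 normalization, no test of a difference between 2 samples can be made.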
